A study of Mus musculus with 61 samples.

Results

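The Sox genes of neural progenitors and young neurons form a set of 9 of the 43346 genes in a table of transcript levels from mouse fetal brain and liver. They were taken by symbol: Sox1, Sox2, Sox3 and Sox9, the progenitor members; Sox4, Sox11 and Sox12, the neuronal members; and Sox8 and Sox21, placed in neither group. RNA was sequenced from forebrain, midbrain and hindbrain at E10.5 (embryonic day 10.5), E11.5, E12.5, E13.5, E14.5, E15.5, E16.5 and P0 (the day of birth), and from liver at the same stages from E11.5. The 61 libraries were 15 from forebrain, 16 each from midbrain and hindbrain and 14 from liver, with 2 libraries in each tissue and stage except forebrain at E10.5, which had 1. The labels name no genotype or treatment, and no source used here gives the strain, the sex or the number of embryos behind a library. The p-values below therefore measure only the spread between the libraries of a group, which may be technical. Levels are in TPM, a unit that divides by transcript length and by the library's total, so a value is a share of all transcripts and the reads behind it are unknown. In whole tissue, fewer cells of a type and less RNA per cell cannot be told apart.

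Sox proteins bind DNA through a high-mobility-group box related to that of the sex-determining factor Sry. The SoxB1 genes Sox1, Sox2 and Sox3 keep neural progenitors undifferentiated, often together with POU-domain partners, and Sox21, a SoxB2 gene, is known to oppose them. The SoxC genes Sox4, Sox11 and Sox12 are switched on as cells leave the cycle and are known for activating neuronal genes. The SoxE genes Sox9 and Sox8 act at the start of gliogenesis, and Sox9 also marks radial glia and, outside the brain, cartilage precursors, neural crest and bile duct.

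In the mouse annotation (GENCODE M21, build GRCm38, the mm10 assembly), 6 of the 9 genes have a single exon: Sox1 at chr8:12395295-12400126, Sox2 at chr3:34650405-34652461, Sox3 at chrX:60891366-60893430, Sox21 at chr14:118233232-118237030, Sox4 at chr13:28948919-28953713 and Sox11 at chr12:27334264-27342574. Sox9 at chr11:112782224-112787760 and Sox8 at chr17:25565892-25570686 have up to 3 exons, and Sox12 at chr2:152393611-152398063 up to 2. Sox1 lies inside the noncoding gene Sox1ot on the same strand, which reached 21.5 TPM, so reads shared by the 2 genes make the level of Sox1 uncertain. Sox8, Sox21 and Sox4 each overlap a gene on the opposite strand (2810468N07Rik, Gm4675 and Gm26735, at most 8.73, 6.26 and 1.52 TPM). The libraries were made with a stranded kit, but whether the counting used strand is not given.

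RefSeq promoter sequence (build GRCm38.p6) was held for 7 of the 9 genes, all but Sox3 and Sox9. The 250 bases before the RefSeq start are shown for Sox2, the most abundant progenitor member, and for the 3 neuronal members, because these groups are set against each other below. Capitals mark matches, on either strand, to ACAAAG or ACAATG (a SOX motif), ATGCAAA (part of the POU octamer), CAGCTG or CAGATG (a proneural E-box) and TGGGAA (the RBPJ core, through which Notch signals act).
Sox2 promoter, chr3:34649745-34649994, plus strand: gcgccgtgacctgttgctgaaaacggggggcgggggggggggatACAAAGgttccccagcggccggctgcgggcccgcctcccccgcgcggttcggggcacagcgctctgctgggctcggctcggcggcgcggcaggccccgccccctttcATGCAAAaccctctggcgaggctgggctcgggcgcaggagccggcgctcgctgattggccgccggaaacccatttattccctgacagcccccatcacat
Sox4 promoter, chr13:28953700-28953949, minus strand: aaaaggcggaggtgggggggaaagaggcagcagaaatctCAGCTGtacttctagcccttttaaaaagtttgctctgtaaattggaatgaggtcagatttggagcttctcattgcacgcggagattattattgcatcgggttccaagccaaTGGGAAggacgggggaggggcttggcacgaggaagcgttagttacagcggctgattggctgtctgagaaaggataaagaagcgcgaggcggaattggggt
Sox11 promoter, chr12:27342719-27342968, minus strand: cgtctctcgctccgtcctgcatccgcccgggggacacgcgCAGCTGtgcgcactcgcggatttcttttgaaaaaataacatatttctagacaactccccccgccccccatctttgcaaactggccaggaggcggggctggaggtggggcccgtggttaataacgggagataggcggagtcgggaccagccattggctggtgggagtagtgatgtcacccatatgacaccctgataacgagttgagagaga
Sox12 promoter, chr2:152398047-152398296, minus strand: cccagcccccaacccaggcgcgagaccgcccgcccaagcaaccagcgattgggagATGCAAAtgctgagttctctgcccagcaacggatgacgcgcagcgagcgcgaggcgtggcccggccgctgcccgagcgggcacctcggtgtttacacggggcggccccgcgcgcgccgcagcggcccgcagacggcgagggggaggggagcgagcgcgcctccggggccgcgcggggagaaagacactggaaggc
Sox2 held 1 SOX match and 1 POU match, Sox12 held 1 POU match, Sox4 held 1 E-box and 1 RBPJ match, and Sox11 held 1 E-box match. Of all 32851 RefSeq promoters of the same 300-base window, 28.6% held the SOX motif, 4.63% the POU motif, 30.6% an E-box and 25.6% the RBPJ core, so only the POU motif was uncommon. CpG dinucleotides stood at 0.647 (Sox8) to 1.07 (Sox12) of the number their C and G content gives, against a median of 0.384 over all promoters. The matches are a description of these letters. The RefSeq starts of Sox2, Sox11, Sox4 and Sox12 differ from the GENCODE starts used for the gene positions above, least for Sox4 and Sox12. That of Sox1, whose promoter is not shown, differs too.

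Before the results, several libraries stand apart. The libraries labelled midbrain at E15.5 carried 379 to 407 TPM in sum of 6 hindbrain Hox genes (Hoxa2, Hoxa3, Hoxb2, Hoxb3, Hoxa5 and Hoxb5) and those labelled hindbrain at E15.5 carried 0.7 to 1.2 TPM. At every other stage hindbrain libraries held 118 to 503 TPM of these genes and midbrain libraries at most 7.9, so both labels are in doubt and are written below as labels. Brain libraries at E12.5 held up to 426 TPM of hepatocyte markers. For 4 columns of midbrain and hindbrain the header and the sample record name different stages (E16.5 and P0); the header's stage was used and these libraries have no replicate number. At P0 both midbrain libraries and 1 hindbrain library, the unnumbered one, had 41.9 to 55.5 TPM in miRNA genes, against 309 to 440 in the 3 other brain libraries, a difference that coincides with the midbrain P0 group. All 8 libraries at E15.5, forebrain and liver included, held 0 to 4.31 TPM of these genes. Brain libraries held 830 to 1135 TPM of them at E12.5 and 162 to 226 at E13.5. Levels at E12.5 and E15.5, and steps into and out of these stages, coincide with these differences, whose effect on the steps was not tested.

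All 9 genes were brain transcripts (plot of TPM by stage). Averaged over the 7 stages from E11.5, 9 of 9 were called higher in brain than in liver, at a log2 difference of 2.96 (Sox8) to 5.86 (Sox2), where 44% of the 18655 genes tested were called higher and the median gene stood at 0.82. A gene is called here when limma's moderated test gives a Benjamini-Hochberg adjusted p below 0.05 over all 18655 genes and a log2(TPM + 1) difference of at least 1. Sox4 was the most abundant member in 19 of the 24 brain groups, Sox2 led in 3 early ones and Sox11 in 2. In forebrain at E11.5 the order was Sox2, Sox11, Sox4, Sox12, Sox9, Sox1, Sox3, Sox21 and Sox8; the library ranges of Sox2 and Sox11, Sox11 and Sox4, Sox9 and Sox1, and Sox1 and Sox3 met, so these neighbours were not separated. By P0 the forebrain order was Sox4, Sox11, Sox12, Sox2, Sox8, Sox1, Sox9, Sox21 and Sox3, with 1 pair of neighbours that met, Sox8 and Sox1. In hindbrain at P0, Sox12 and Sox2 stood above Sox11, which had led at E11.5.

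**Figure D1:**
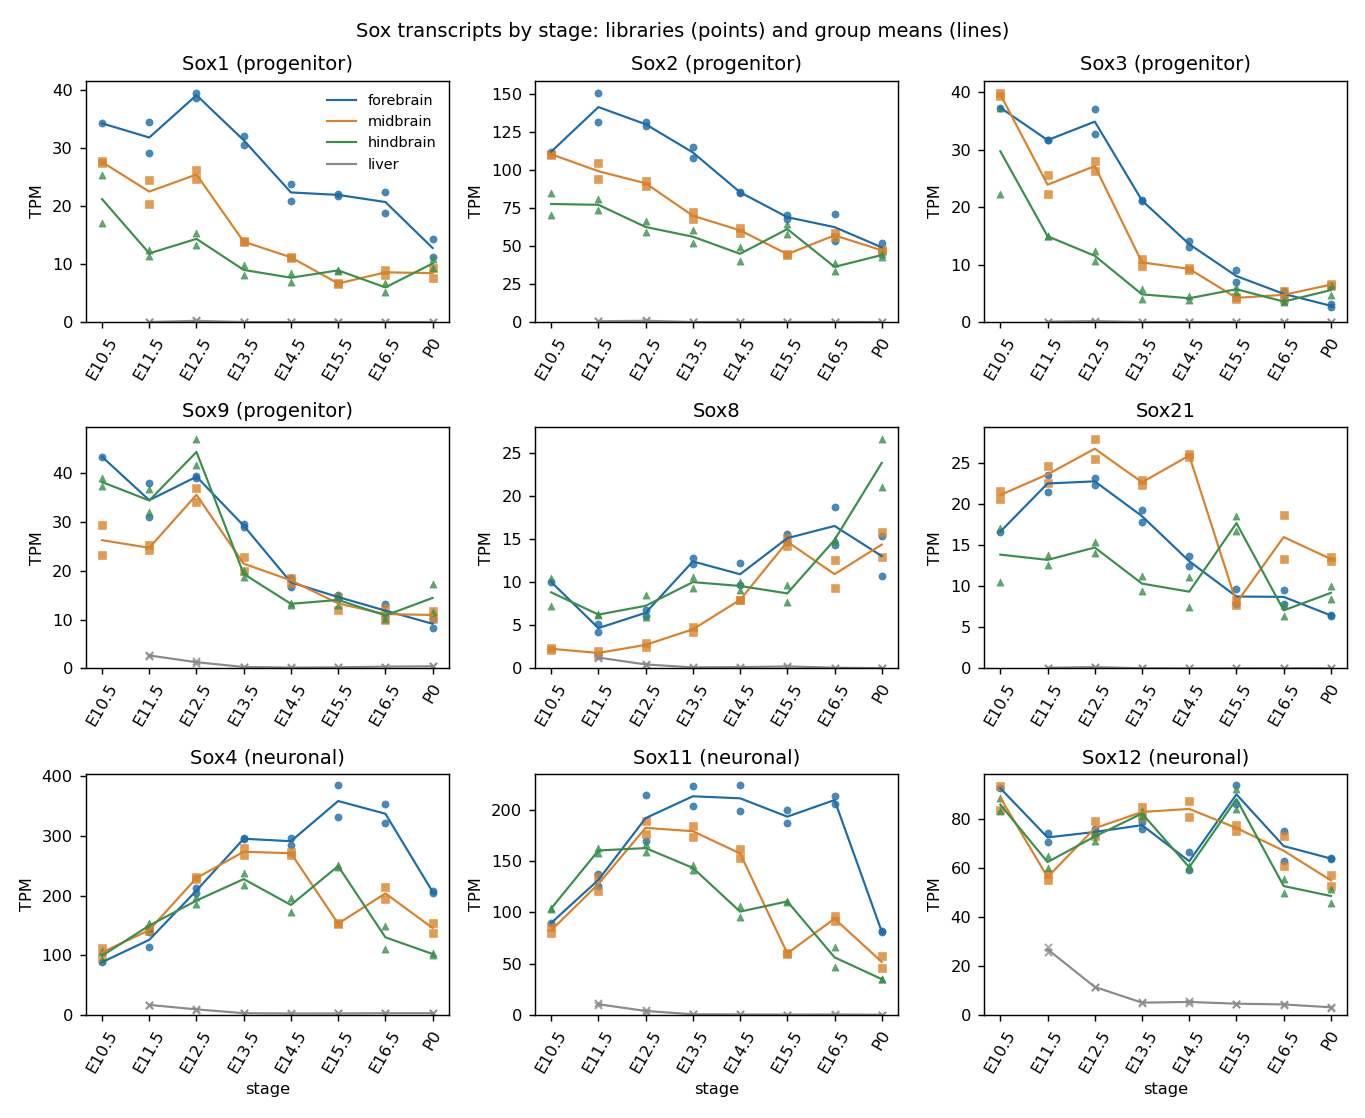
TPM of each gene (y axis, linear, from 0) against stage (x axis) in forebrain (blue circles), midbrain (orange squares), hindbrain (green triangles) and liver (grey crosses); points are libraries and lines join group means. In forebrain Sox1, Sox2, Sox3 and Sox9 fall from early to late stages, and Sox4 and Sox11 rise and then fall. Forebrain Sox8 is lower at E11.5 than in the single E10.5 library and then rises. The libraries labelled midbrain and hindbrain at E15.5 break the curves of Sox21, Sox4 and Sox11.

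Between E11.5 and P0 all 4 progenitor members were called lower in forebrain and in midbrain, and 2 of 4, Sox3 and Sox9, in hindbrain. With the 4 conflicting columns at the stage of their record, the midbrain calls of Sox2 (-0.90), Sox9 (-0.97) and Sox11 (-0.80) were lost. Over all genes tested, 11.8% were called lower and 19.2% higher in forebrain, 15.1% and 18.3% in midbrain, and 11.8% and 16.2% in hindbrain. In every called difference between stages of a tissue, 33 in all, the libraries of the 2 stages lay apart; they also lay apart in 48 of 57 differences that were not called, so with 2 libraries a group this separation is common.

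Sox3, an X-linked SoxB1 gene, fell the most among the progenitor members. In forebrain it stood at 31.6 and 31.7 TPM at E11.5, 14.08 and 13.02 at E14.5 and 3.06 and 2.58 at P0, a log2 difference of -3.10 ± 0.15 (SE, n = 2 and 2 libraries; limma adjusted p = 3.88e-19). In midbrain it went from 22.2 and 25.6 TPM to 6.34 and 6.66 (-1.73 ± 0.15, limma adjusted p = 2.56e-12), and in hindbrain from 14.90 and 14.97 to 4.66 and 6.46 (-1.29 ± 0.15, limma adjusted p = 2.84e-09). The timing was read region by region, and no test compared it between regions. At E10.5 the 5 brain libraries stood between 22.2 and 40.0 TPM. The largest drop between neighbouring stages in midbrain came from E12.5 to E13.5 (26.4 and 28.0 to 10.9 and 9.82 TPM), and hindbrain fell in the same step (12.4 and 10.7 to 3.92 and 5.71), both called lower. Both steps leave E12.5, a stage set apart above. Forebrain also fell from E12.5 to E13.5 (-0.69 ± 0.15, under the size threshold), and no single step there was called. From E13.5 to P0 the libraries labelled hindbrain stayed between 3.48 and 6.46 TPM.

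Sox2, the SoxB1 factor also needed for pluripotency, was the most abundant progenitor member in each of the 24 brain groups. Forebrain held 132 and 151 TPM at E11.5, 85.1 and 85.5 at E14.5 and 51.8 and 46.4 at P0 (-1.51 ± 0.13, limma adjusted p = 1.51e-12). Midbrain fell from 93.75 and 104.6 TPM to 47.3 and 47.0 (-1.05 ± 0.13, limma adjusted p = 6.03e-09), close to the threshold: the value was -0.90 with median-of-ratios scaling and -0.98 without the second E11.5 library, neither of them called. In hindbrain Sox2 stood at 73.4 and 80.7 TPM at E11.5 and at 43.0 and 45.0 at P0, a difference of -0.79 ± 0.13 that was not called. The regions, which stood apart at E11.5, lay close together at P0, with all 6 brain libraries between 43.0 and 51.8 TPM. No step between neighbouring stages was called for Sox2 in any region.

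Sox1, the third SoxB1 gene, was highest in forebrain. Its 15 forebrain libraries ranged from 11.2 to 39.6 TPM, the 16 midbrain libraries from 6.48 to 27.8 and the 16 hindbrain libraries from 5.16 to 25.3. Averaged over E11.5 to P0, the forebrain was above the hindbrain by 1.29 ± 0.05 on the log2 scale (limma adjusted p = 8.02e-22), the 1 of 9 genes called there, beside 4.32% of all genes. Against midbrain the difference was 0.92 ± 0.05, under the threshold, and limma called 0 of 9 between forebrain and midbrain, beside 2.73% of all genes, and 0 of 9 between midbrain and hindbrain, beside 0.97%. In each of these 2 comparisons 8 of 9 had an unadjusted limma p below 0.05 with differences smaller than 1, and the share of all genes at that threshold was not counted. Quantile normalization put Sox1 at 1.002 between forebrain and midbrain and Sox3 at 1.03 between forebrain and hindbrain, both called. Sox1 fell from 29.1 and 34.5 to 11.2 and 14.3 TPM in forebrain (-1.26 ± 0.13, limma adjusted p = 2.13e-10) and from 20.4 and 24.5 to 9.30 and 7.55 in midbrain (-1.32 ± 0.13, limma adjusted p = 6.85e-11). In hindbrain it stood at 11.3 and 12.3 TPM at E11.5 and 9.34 and 10.8 at P0, and was not called. Hindbrain Sox1 was higher before that start, with 17.1 to 25.3 TPM at E10.5 (step to E11.5 -0.77 ± 0.13, under the size threshold). Its lowest hindbrain group was E16.5, with 5.16 to 6.77 TPM. In forebrain the step from E10.5 to E11.5 was -0.11 ± 0.16, from a single E10.5 library. The overlapping Sox1ot followed another course in forebrain, 6.78 and 8.70 TPM at E11.5, 20.0 and 21.5 at E13.5 and 8.08 and 8.52 at P0.

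Sox9, the SoxE factor of radial glia and astrocytes, was called lower at P0 in all 3 regions. Forebrain went from 31.0 and 38.0 TPM to 8.26 and 10.04 (-1.81 ± 0.13, limma adjusted p = 2.74e-14), midbrain from 24.2 and 25.3 to 11.8 and 10.1 (-1.11 ± 0.13, limma adjusted p = 3.69e-09) and hindbrain from 32.1 and 36.8 to 11.7 and 17.3 (-1.22 ± 0.13, limma adjusted p = 5.44e-10). The midbrain call was lost with median-of-ratios scaling (-0.95) and with the replicate number fitted as a block (-0.96), and the hindbrain call without the numbered P0 library (-0.95). In hindbrain 1 step was called, from 47.1 and 41.7 TPM at E12.5 to 18.7 and 20.1 at E13.5 (-1.15 ± 0.13, limma adjusted p = 7.77e-09); the next step, to E14.5, was -0.52 ± 0.13 and under the size threshold. Sox9 also marks cartilage precursors. Of 6 cartilage and bone markers, 2 were called lower in each region, Col2a1 and Col9a1, collagen genes of cartilage named after their values were seen, and 0 higher (medians 0.09, -0.21 and -0.41 in forebrain, midbrain and hindbrain). The summed level of the 6 was 117 to 127 TPM at E11.5 and 10.6 to 14.2 at P0 in forebrain, 130 to 146 and 8.8 to 9.3 in midbrain, and 195 to 228 and 13.49 to 13.85 in hindbrain. At least 2 of the 6 stood at 1 TPM or more and none was at 0 in any of these groups, and the hindbrain sum went from 312 to 332 TPM at E12.5 to 50.2 to 75.9 at E13.5. The part of these cells in the fall of Sox9 was not tested.

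Of the neuronal members, Sox4 and Sox11 stood higher at E14.5 than at E11.5, except Sox11 in hindbrain. Only Sox4 in forebrain was called. Sox12 was lower in forebrain (-0.21 ± 0.09), higher in midbrain (0.57 ± 0.09) and near its E11.5 level in hindbrain, none of them called. Sox4, a SoxC gene, stood at 113 and 138 TPM in forebrain at E11.5, 297 and 286 at E14.5, 332 and 385 at E15.5 and 208 and 205 at P0. It was called higher at E14.5 than at E11.5 (1.21 ± 0.10, limma adjusted p = 2.02e-12) and lay 0.72 ± 0.10 above E11.5 at P0, not called. In midbrain it went from 140 and 144 TPM to a peak of 280 and 268 at E13.5 and back to 154 and 138 at P0. In hindbrain it went from 146 and 153 TPM to 217 and 238 at E13.5 and to 104 and 99.8 at P0. Of the P0 groups, then, the forebrain alone stood above its own E11.5 level and the hindbrain below it, while midbrain libraries of the 2 stages overlapped.

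Sox11, which shares targets with Sox4, had its highest group mean at an earlier stage than Sox4 in each region, and a deeper fall. Its peak stage was not resolved in forebrain, where means were 213 TPM at E13.5, 211 at E14.5 and 209 at E16.5. In midbrain the libraries of E12.5 and E13.5 overlapped. Forebrain held 126 and 137 TPM at E11.5, 203 and 223 at E13.5, 213 and 206 at E16.5 and 80.5 and 81.6 at P0; the last step was the only one called in forebrain for any of the 9 genes (-1.36 ± 0.12, limma adjusted p = 1.11e-11). From E11.5 to P0 the forebrain difference was -0.69 ± 0.12 and not called. Midbrain rose from 121 and 134 TPM to 176 and 189 at E12.5 and ended at 57.8 and 45.3, lower than at E11.5 (-1.30 ± 0.12, limma adjusted p = 2.88e-12). Hindbrain was near its peak at E11.5, with 158 and 162 TPM, stood at 106 and 95.3 at E14.5 (-0.67 ± 0.12, under the size threshold) and ended at 35.1 and 34.5 (-2.17 ± 0.12, limma adjusted p = 4.43e-18), the largest fall of any member there. P0 thus set the regions in the order forebrain, midbrain, hindbrain, with no overlap of libraries, where at E11.5 the hindbrain had been highest.

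Sox12, the third SoxC gene, moved least. Its 47 brain libraries lay between 45.7 and 94.0 TPM, and the highest group mean was 1.48, 1.61 and 1.82 times the lowest in forebrain, midbrain and hindbrain, against 4.06, 2.61 and 2.52 for Sox4 and 2.63, 3.53 and 4.67 for Sox11. In hindbrain the highest means of Sox12 (88.3 TPM) and Sox4 (250 TPM) came under the doubtful E15.5 label. Next were 86.0 TPM at E10.5 for Sox12 and 228 TPM at E13.5 for Sox4. No stage comparison or step in brain was called for Sox12. In forebrain it stood at 70.9 and 74.3 TPM at E11.5 and 63.6 and 64.3 at P0. In hindbrain the levels were 60.1 and 64.9 TPM at E11.5 and 45.7 and 51.6 at P0, a difference of -0.36 ± 0.09 that was under the size threshold.

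Of the 2 genes in neither group, Sox8, a SoxE gene of the oligodendrocyte lineage, was called higher at P0 than at E11.5 in each brain region. It went from 4.19 and 5.18 to 10.7 and 15.4 TPM in forebrain (1.29 ± 0.16, limma adjusted p = 9.95e-09), from 1.57 and 2.02 to 15.9 and 12.9 in midbrain (2.46 ± 0.16, limma adjusted p = 1.21e-15) and from 6.18 and 6.33 to 21.1 and 26.7 in hindbrain (1.77 ± 0.16, limma adjusted p = 8.24e-12). Midbrain began lowest and caught up with the forebrain, while hindbrain ended highest. Sox8 is also a neural crest gene; the summed level of 6 peripheral nerve and neural crest markers was 106 to 109 TPM at E11.5 and 120 to 136 at P0 in hindbrain, 33.1 to 33.3 and 26.8 to 30.5 in midbrain, and 27.7 to 32.4 and 39.1 to 46.7 in forebrain. The part of these cells in the rise of Sox8 was not tested.

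Sox21, the SoxB2 gene, had its highest group mean in midbrain in 7 of the 8 stages, though at E11.5 its forebrain and midbrain libraries overlapped. Midbrain libraries from E10.5 to E14.5 stood between 20.6 and 27.9 TPM and those at E16.5 and P0 between 13.03 and 18.65, while at E15.5 the midbrain label came with 7.69 and 8.27 TPM and the hindbrain label with 18.6 and 16.8. Forebrain fell from 21.5 and 23.5 TPM at E11.5 to 6.41 and 6.48 at P0 (-1.66 ± 0.15, limma adjusted p = 2.58e-12). In midbrain the difference was -0.78 ± 0.15 (22.6 and 24.6 to 13.57 and 13.03 TPM) and in hindbrain -0.48 ± 0.15 (12.6 and 13.8 to 9.97 and 8.42 TPM), neither of them called.

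**Figure D2:**
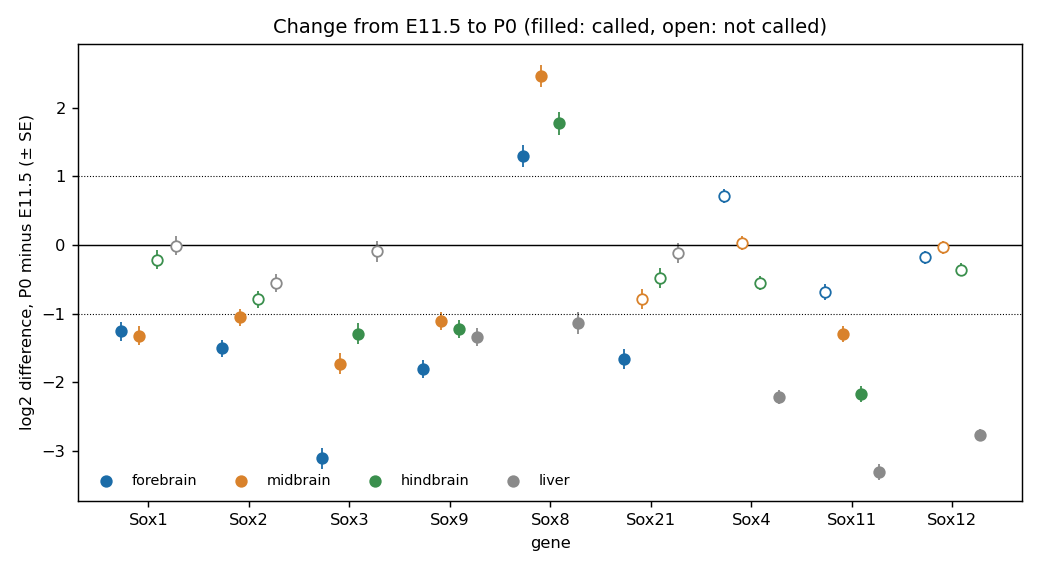
Log2 difference of TPM + 1 between P0 and E11.5 (y axis, with SE) for each gene (x axis) in forebrain, midbrain, hindbrain and liver; filled points are called and dotted lines mark a difference of 1 in either direction. The progenitor members lie below 0 in the brain regions, Sox8 lies above 1 in all 3, Sox12 lies near 0 in brain, and Sox4, Sox11 and Sox12 lie below -2 in liver.

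Split at E14.5, the 2 parts of the course differed in the genes called. From E11.5 to E14.5, 2 of 9 genes were called higher in forebrain (Sox4 and Sox8) and 1 lower (Sox3), where 8.67% of all genes were called higher and 4.71% lower. The forebrain value of Sox8 was 1.07 ± 0.16 and fell to 0.85 with quantile normalization, 0.94 without the first E11.5 library and 0.91 without the first E14.5 library, none of them called. In midbrain 1 was called higher (Sox8, 1.69 ± 0.16) and 1 lower (Sox3, -1.28 ± 0.15), beside 12.6% and 6.71% of all genes. Hindbrain had 0 higher and 2 lower, Sox3 (-1.64 ± 0.15) and Sox9 (-1.31 ± 0.13), beside 10.2% and 5.99%. The early fall of Sox3 was called in all 3 regions. Of the members with an unadjusted limma p below 0.05 in hindbrain, 2 were higher, Sox4 and Sox8, and 6 were lower, the 4 progenitor members, Sox21 and Sox11. The share of all genes at this unadjusted threshold was not counted, so no direction of the set is read from these counts.

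From E14.5 to P0, Sox11 was called lower in all 3 regions: -1.37 ± 0.12 in forebrain, -1.60 ± 0.12 in midbrain and -1.5025 ± 0.12 in hindbrain (limma adjusted p at most 2.36e-12). Sox3 went on falling in forebrain (-1.93 ± 0.15) and was not called in the other 2 regions. Sox8 was called higher in hindbrain (1.23 ± 0.16), a call lost with the conflicting columns at the stage of their record (0.83). These are 0 higher and 2 lower in forebrain, beside 10.5% and 5.77% of all genes, 0 and 1 in midbrain, beside 6.09% and 4.95%, and 1 and 1 in hindbrain, beside 4.4% and 2.12%. At an unadjusted limma p below 0.05, 0 members were higher and 7 lower in forebrain, and 1 (Sox8) was higher and 8 were lower in midbrain. These unadjusted counts too have no share of all genes beside them. Of the 189 pairs of a gene and a step between neighbouring stages in the brain, 7 were called, all lower, where 4.17% of all gene and step pairs were called in either direction. Median-of-ratios scaling gave 12 such pairs and quantile normalization 14. The 7 were Sox11 from E16.5 to P0 in forebrain, Sox3 from E12.5 to E13.5 in midbrain and hindbrain, Sox9 in that hindbrain step, and 3 steps into or out of the doubtful E15.5 labels: Sox21 (-1.58 ± 0.15) and Sox11 (-1.38 ± 0.12) from E14.5 to E15.5 in midbrain, and Sox21 from E15.5 to E16.5 in hindbrain (-1.21 ± 0.15). With E15.5 passed over, Sox11 in midbrain went from 161 and 153 TPM at E14.5 to 95.9 and 91.5 at E16.5, and Sox21 in hindbrain from 11.1 and 7.53 to 7.71 and 6.41.

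The changes from E11.5 to P0 were then compared between regions by an interaction term. Forebrain and hindbrain differed in 5 of 9 genes, beside 7.96% of all genes. Relative to hindbrain, the forebrain change was lower for Sox3 (-1.81 ± 0.22, limma adjusted p = 5.24e-08), Sox21 (-1.18 ± 0.21, limma adjusted p = 3.10e-05) and Sox1 (-1.045 ± 0.19, limma adjusted p = 4.42e-05), and higher for Sox11 (1.48 ± 0.16, limma adjusted p = 1.05e-08) and Sox4 (1.27 ± 0.14, limma adjusted p = 1.58e-08). These are 2 of 4 progenitor members, 2 of 3 neuronal members and Sox21. The Sox1 difference is fragile: it was -0.88 without the first forebrain P0 library, -0.93 without the second forebrain E11.5 library, -0.99 without the first hindbrain E11.5 library and -0.95 without the unnumbered hindbrain P0 library, none of them called. Midbrain and hindbrain differed in 1 of 9, Sox1 (-1.10 ± 0.19, limma adjusted p = 3.62e-05), beside 4.72% of all genes; it was -0.98 without the second midbrain E11.5 library and -0.97 without the unnumbered midbrain P0 library, not called in either; in the last setting Sox11 (1.04) was called instead. With the replicate block Sox1 stood at -0.87 and was not called, while Sox11 (1.03) was. With the 4 conflicting columns at the stage of their record, Sox1 stood at -0.52 here and at -0.57 between forebrain and hindbrain, not called in either. Forebrain and midbrain differed in 2 of 9, Sox3 (-1.37 ± 0.22, limma adjusted p = 1.33e-05) and Sox8 (-1.17 ± 0.23, limma adjusted p = 0.000257), beside 5% of all genes. The Sox8 difference was -0.92 and not called without the first forebrain P0 library. With a term for the 3 P0 libraries low in miRNA genes, estimated from the hindbrain P0 pair and added after the data were seen, Sox3 stood at -0.97 and Sox8 at -0.84, neither called.

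Set against each other, the 2 groups shifted differently by region (plot of the progenitor share). The share of Sox1, Sox2, Sox3 and Sox9 in the summed TPM of the 7 progenitor and neuronal members was 45.6% in the single forebrain library at E10.5, and in the 2-library groups 42.0 ± 0.2% (SD, n = 2) at E11.5, 19.7 ± 0.4% at E14.5, 13.9 ± 1.4% at E16.5 and 17.4 ± 0.1% at P0. In midbrain it was 42.5 ± 1.3% at E10.5, 34.3 ± 0.9% at E11.5, lowest at 16.2 ± 0.1% at E14.5 and 22.5 ± 1.0% at P0. In hindbrain it went from 36.5 ± 4.2% at E10.5 and 27.1 ± 0.7% at E11.5 to 16.4 ± 0.9% at E13.5. At P0 the hindbrain share was 28.5 ± 2.1%, close to that of E11.5 but below that of E10.5. The low point came later in forebrain than in midbrain and hindbrain. As the log2 ratio of the sums, the change from E11.5 to P0 was -1.79 in forebrain, -0.85 in midbrain and 0.10 in hindbrain; this score over chosen genes was not tested. Leaving out 1 library at a time moved the hindbrain value between 0.0017 (without the unnumbered P0 library) and 0.21 (without the numbered one). The hindbrain value rests on the neuronal sum as much as the progenitor sum: from E11.5 to P0 the progenitor sum went from 138 ± 9 to 74.1 ± 7.7 TPM and the neuronal sum from 372 ± 12 to 185 ± 1 TPM, and without Sox11 the change was -0.41.

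**Figure D3:**
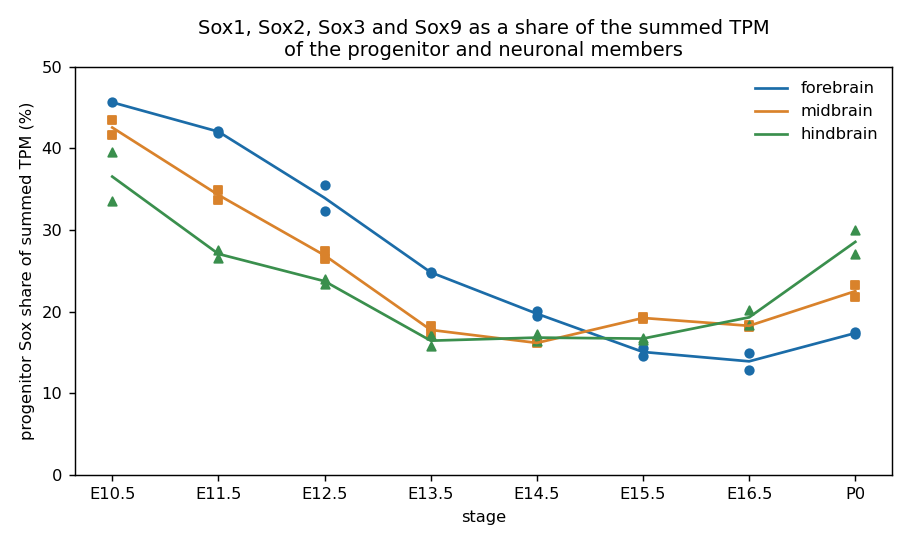
Summed TPM of Sox1, Sox2, Sox3 and Sox9 as a percentage of the summed TPM of those genes and Sox4, Sox11 and Sox12 (y axis) against stage (x axis); points are libraries and lines join group means of each brain region. Forebrain starts at 45.6% and reaches its lowest mean, 13.9%, at E16.5. Hindbrain starts at 36.5%, has its lowest mean, 16.4%, at E13.5 and stands at 28.5% at P0.

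Across the 24 brain group means, the 4 progenitor members followed each other, with Pearson r between 0.68 and 0.92 over their 6 pairs (plot of correlations). That range was not theirs alone: Sox21 had r of 0.73 with Sox3, 0.72 with Sox2, 0.63 with Sox9 and 0.53 with Sox1. Sox4 and Sox11 had r of 0.70, and Sox12 had 0.21 with Sox4 and 0.45 with Sox11. Between the groups, 12 pairs ranged from -0.32 (Sox3 and Sox4) to 0.54 (Sox2 and Sox11). Sox8 ran against Sox21 (-0.76), Sox3 (-0.66) and Sox2 (-0.62). These values describe curves that share stages and libraries. Those of Sox12 depended on the E15.5 groups, forebrain among them. Without that stage its r was 0.10 with Sox4, 0.58 with Sox9, 0.55 with Sox2 and 0.54 with Sox3. Over all groups its r with the last 3 was 0.42, 0.44 and 0.39. An exchange of the doubtful midbrain and hindbrain labels would leave every r as it is. The genes most like each member, of 12010 with a mean of at least 5 TPM in brain, were for Sox1 Lix1 (r = 0.96), Rspo3 (0.92), which encodes a Wnt-enhancing R-spondin, and Sox2 (0.92). For Sox2 they were Nmral1, Srsf4 and Bckdk (0.94 each). For Sox3 they were Dek (0.97), a chromatin protein, H2afx (0.96), the histone variant of DNA breaks, and Ube2s (0.96), a ubiquitin-conjugating enzyme of mitosis. Sox9 was closest to Tmem98, Chd4 and Palld (0.95 each), Sox8 to Hs6st2 (0.88), Sema4d (0.86) and Mgll (0.86), and Sox21 to Nuak2 (0.91), Barhl2 (0.90), a homeobox factor, and Lef1 (0.89), a transcription factor of the Wnt pathway. Sox4 was closest to Lrch2 (0.95), Tcf20 (0.95) and Hp1bp3 (0.94), Sox11 to the RNA-binding genes Mex3b (0.945) and Mex3a (0.94) and to Bmi1 (0.94), and Sox12 to Zfp358 (0.91), Bcl9 (0.91) and Prr12 (0.88).

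**Figure D4:**
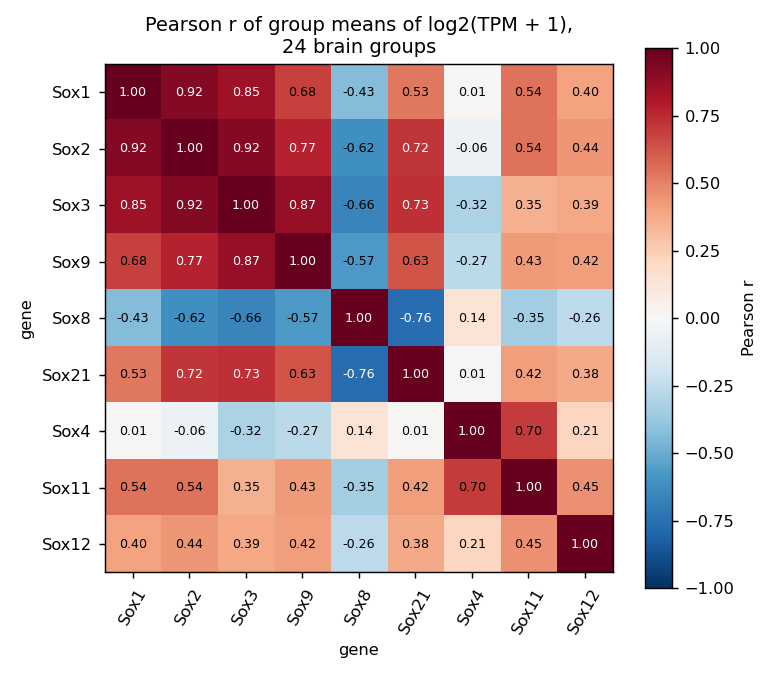
Pearson r between each pair of the 9 genes (both axes) over the mean log2(TPM + 1) of 24 brain groups; red is positive and blue negative. Sox1, Sox2, Sox3 and Sox9 form a block of at least 0.68, Sox4 and Sox11 pair at 0.70, and Sox8 is negative with 7 of the 8 others. Sox21 stands at 0.53 (Sox1) to 0.73 (Sox3) with the members of that block.

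Genes that work beside the members were read in the same comparison, P0 against E11.5 (plot of gene lists). Of 14 other progenitor genes, 11 were called lower and 3 higher in forebrain, with a median log2 difference of -2.38 beside 0.02 for all genes; the counts were 10 and 4 in midbrain and 9 and 4 in hindbrain. Ccnd1, the cyclin of the early cycle, changed by -3.68 in forebrain, Nes, the intermediate filament of progenitors, by -3.35 and Gli3, a Hedgehog pathway factor, by -3.19. The 3 that rose in forebrain, Slc1a3 (2.33), Fabp7 (1.55) and Hopx (1.30), are also genes of astrocytes and late radial glia and were named after their values were seen. All 6 cell division genes were called lower in each region, with medians of -3.91, -4.38 and -2.68 in forebrain, midbrain and hindbrain; the mitotic genes Bub1, Top2a and Ccnb1 changed by -4.18, -4.08 and -4.00 in forebrain.

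Of 14 young neuron genes, 7 were called higher and 4 lower in forebrain (median 0.79), 5 and 6 in midbrain and 3 and 5 in hindbrain. Those that fell in forebrain included Neurog1 (-4.55) and Neurog2 (-3.95), proneural factors that act in dividing cells, and Tead2 (-3.78), a TEA-domain factor. Elavl4, an RNA-binding protein of neurons, stood at 49.9 and 73.9 TPM at E11.5 and 79.7 and 95.4 at P0 and was not called. Among 7 POU and PAX factors that pair with SoxB1 proteins, 1 was called higher and 2 lower in forebrain, 0 and 4 in midbrain and 1 and 4 in hindbrain. In forebrain Pax6, which is also one of the progenitor genes, changed by -2.48, Pou3f4 by -1.57 and Pou3f1 by 1.38, while Pou3f3, at 48.8 and 55.9 TPM at E11.5 and 49.6 and 56.3 at P0, was not called.

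Of 13 gliogenic genes around Sox9 and Sox8, 8 were called higher in forebrain and 9 in midbrain and in hindbrain, none lower, with medians of 2.24, 2.58 and 3.69. Gfap, the astrocyte filament, changed by 5.04 in forebrain, Aldh1l1, an astrocyte enzyme, by 4.64 and Nfix, a nuclear factor I gene, by 4.07; Apcdd1, at 51.0 and 51.1 TPM at E11.5 and 55.8 and 61.8 at P0, was not called. Of the other Sox genes, 8 of 11 passed the filter on low values; 1 was called higher and 2 lower in forebrain, 2 and 1 in midbrain and 0 and 1 in hindbrain. Sox10, the oligodendrocyte and neural crest SoxE gene that is also on the gliogenic list, changed by 2.24 in forebrain, Sox13 by -1.69 and Sox18, an endothelial gene, by -1.01, and Sox5, at 15.1 and 24.7 TPM at E11.5 and 24.6 and 33.9 at P0, was not called. The lists were chosen with earlier results of these data known and are no independent evidence of a direction.

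**Figure D5:**
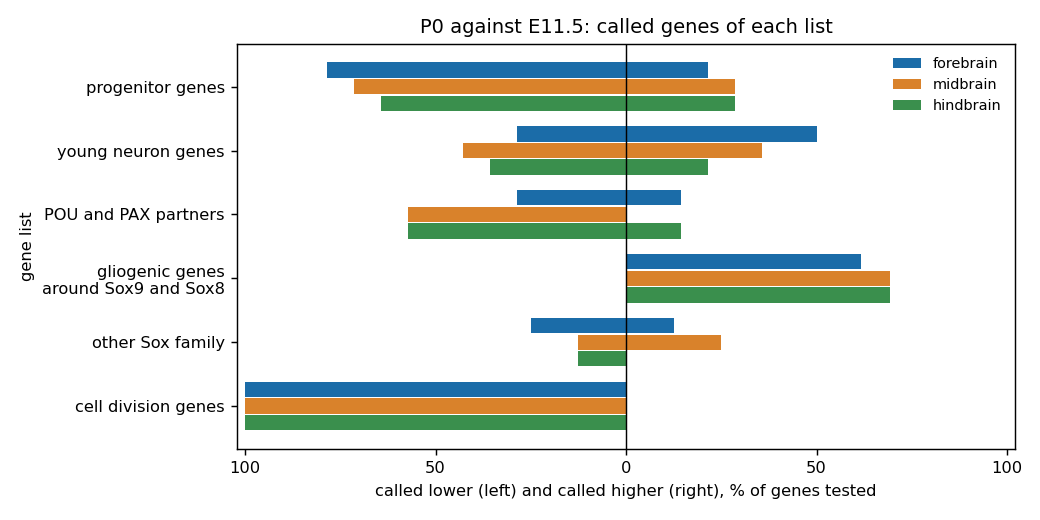
Share of the tested genes of each list (y axis) called lower (left) or higher (right) at P0 than at E11.5, in percent (x axis), in each brain region. All 6 cell division genes lie to the left in the 3 regions, and the gliogenic genes lie only to the right.

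In liver Sox1, Sox2, Sox3 and Sox21 were at or near 0, with 1.24 TPM (Sox2, the second E12.5 library) the highest value of the 4 in 14 libraries. Both neuronal and SoxE members were present at E11.5 and then fell. Sox12 went from 25.7 and 27.9 TPM at E11.5 to 3.26 and 2.93 at P0 (-2.76 ± 0.09, limma adjusted p = 2.51e-24), Sox4 from 16.8 and 16.6 to 2.85 and 2.81 (-2.21 ± 0.10, limma adjusted p = 2.66e-20) and Sox11 from 11.2 and 9.49 to 0.16 and 0.13 (-3.30 ± 0.12, limma adjusted p = 1.48e-23). Sox12, not Sox4, led at all 7 liver stages. Sox9 fell from 2.85 and 2.47 to 0.48 and 0.42 TPM (-1.33 ± 0.13, limma adjusted p = 3.75e-11) and Sox8 from 1.16 and 1.36 to 0.03 and 0.03 (-1.13 ± 0.16, limma adjusted p = 1.06e-07). These 5 of 9 stand beside 38.2% of all genes called lower and 8.14% called higher, and beside a median of -0.69 for all genes; that median became -0.015 with median-of-ratios scaling. There Sox9 stood at -0.87 and was not called, while Sox4 (-1.26), Sox11 (-3.12) and Sox12 (-1.80) kept their calls; with quantile normalization Sox9 stood at -0.99, not called either.

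Markers of other cells also changed in liver. The 6 Hox genes summed to 34.9 to 35.8 TPM at E11.5 and 2.2 to 3.2 at P0, meninges and fibroblast markers to 360 to 398 and 210 to 248, skeletal muscle markers to 36.9 to 62.9 and 5.4 to 29.7, and peripheral nerve and neural crest markers to 9.0 to 10.6 and 1.4 to 1.7. Forebrain and midbrain markers summed to 1.6 to 2.2 TPM at E11.5 and to at most 0.1 at P0, with En2 at 0. Bile duct markers, listed because Sox9 is a bile duct gene, went from 32.8 to 33.5 TPM at E11.5 to 90.2 to 97.0 at P0 in sum, though 2 of 7 were called higher and 3 lower (median -0.48), and hepatocyte markers from 12079 to 13129 TPM to 138668 to 147380. The part of any of these cells in the fall of the Sox genes was not tested. In brain, more of the 6 meninges and fibroblast markers were called lower than higher at P0: 4 lower and 2 higher in forebrain (median -1.45), 4 and 1 in midbrain (-1.60) and 4 and 1 in hindbrain (-1.61). Their sum was nevertheless larger at P0, where Ptgds, an abundant prostaglandin synthase named after its values were seen, was higher by 8.57, 9.66 and 9.13 on the log2 scale. The sum went from 391 to 429 TPM to 574 to 718 in forebrain, from 558 to 570 to 1055 to 1203 in midbrain and from 428 to 467 to 599 to 1462 in hindbrain, where the unnumbered P0 library was the higher one.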

How the data were processed

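Per the labels' protocols, libraries were made from 4 µg of total RNA in a stranded, mRNA-selecting protocol. The deposited table gives TPM (transcripts per 1000000) for each gene and library as the authors computed it. RSEM 1.2.23 and STAR 2.4.0k are the tools, and mm10 the build, per the submitters' processing notes; no source used here names the annotation. TPM keeps no counts, so depth is unknown, no counting interval could be given and no count test was used. Columns summed to 997627 to 1000000 TPM, with 12104 to 15561 genes reaching 1 TPM, and no 2 columns were identical.

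The 61 columns were placed in 31 groups of tissue and stage by the label each header matches. Gene IDs were matched to GENCODE M21 symbols (42462 of 43346). The filter kept 18655 genes that reached 1 TPM in 2 or more libraries, all 9 members among them. They were tested as log2(TPM + 1) with limma 3.58.1 (R 4.3.3), with 1 mean per group, a mean-variance trend and Benjamini-Hochberg adjustment over all genes in each contrast; the procedure was tested on simulated data. A difference on this scale understates the change of low genes. The members and gene lists were chosen with earlier results of these data known. Genes named from a list are its 3 largest called changes from E11.5 to P0 in forebrain and the most abundant one not called. Alternatives changed the pseudocount, the filter, the scaling, the replicate block, the libraries in the fit, the stage of 4 columns and the libraries left out, with a term for 3 P0 libraries low in miRNA genes added after the data were seen. Some genes of the lists are counted in them but their own values are not reported here.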

Additional observations from a re-analysis of the deposited data

Results flagged for a closer look

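By limma's interaction test, the E11.5 to P0 change differed between forebrain and hindbrain in 5 of 9 genes, beside 7.96% of all genes. Forebrain and midbrain differed in 2 of 9, beside 5%, and midbrain and hindbrain in 1 of 9, beside 4.72%. Forebrain minus hindbrain gave -1.81 for Sox3, -1.18 for Sox21, -1.045 for Sox1, 1.27 for Sox4 and 1.48 for Sox11 on the log2(TPM + 1) scale. Forebrain minus midbrain gave -1.37 for Sox3 and -1.17 for Sox8, and midbrain minus hindbrain gave -1.10 for Sox1. The Sox1 calls and the Sox8 call were each lost on leaving out 1 library. Sox9, Sox2 and Sox12 passed in none of the 3 comparisons. No group held enough libraries to test for one that lies far from the rest.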

How the results depend on the processing

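With 1 or 2 libraries a group, the spread is pooled over all groups, and a group left with 1 library is assumed to vary like the others; TPM gives no depth, so levels near 0 have no floor. Single-gene log2 differences were followed under each alternative only where limma's adjusted p was below 0.05 as reported, or where an alternative called them. Differences near 0, which change sign most easily, were mostly left out by this rule. Of those followed, 1 changed sign: Sox1 from E14.5 to P0 in hindbrain (0.36, not called) stood at -0.11 with 4 columns given the stage of their record.

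With those columns at the record's stage, the number of genes called was 3 in midbrain from E11.5 to P0, 1 in hindbrain from E14.5 to P0 and 2 between midbrain and hindbrain changes. With pseudocount 0.1 the last was 2. Median-of-ratios scaling gave 12 called steps between neighbouring stages and quantile normalization 14, and quantile normalization gave 1 gene between forebrain and midbrain and 2 between forebrain and hindbrain. The replicate block gave 2 in midbrain from E14.5 to P0, as did the added term for P0 libraries low in miRNA genes (2), which gave 1 between forebrain and midbrain changes, Sox21 (-1.09), in place of Sox3 and Sox8. The replicate block moved no other count by over 1.5 times, but exchanged Sox1 for Sox11 between midbrain and hindbrain changes and ended the midbrain Sox9 call. The cause of these shifts was not tested.

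Whether equal replicate numbers mark paired samples was not settled. The difference between the first and second replicate was correlated across genes between 2 tissues of the same stage. Of 33 such tissue pairs, 10 had a correlation above 0.1 (range -0.63 to 0.23), which cannot show or exclude shared embryos or batches. Leaving out 1 library at a time gave 1 to 2 genes between forebrain and midbrain changes and 0 to 1 between midbrain and hindbrain changes, the lowest without the first forebrain P0 library and without the second midbrain E11.5 library.

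The change of the progenitor to neuronal ratio was -2.14 in forebrain, -1.23 in midbrain and -0.41 in hindbrain without Sox11, the last a change of sign, and -1.87 in forebrain as a difference of mean log2 values.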

Other observations

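The 2 hindbrain P0 libraries held 336 (numbered) and 41.9 TPM (unnumbered) of miRNA genes, and are the only brain group at P0 with a library of each kind. Sox4 (104 and 99.8 TPM), Sox11 (35.1 and 34.5) and Sox2 (43.0 and 45.0) stood close together in them, while Sox9 (11.7 and 17.3), Sox3 (4.66 and 6.46) and Sox8 (21.1 and 26.7) were higher in the unnumbered library and Sox21 (9.97 and 8.42) was lower. Meninges and fibroblast markers summed to 599 and 1462 TPM in the same libraries.

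At E15.5 Sox11 stood at 59.0 and 60.7 TPM under the midbrain label and 111 and 110 under the hindbrain label, while at E14.5 midbrain held 161 and 153 and hindbrain 106 and 95.3. Sox2 stood at 44.4 and 44.9 TPM under the midbrain label and 57.6 and 64.7 under the hindbrain label.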
